A study of Mus musculus with 6 samples.

Results

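The genes described are the mRNAs of the oxygen-sensing switch of mouse cells, that is the subunits of hypoxia-inducible factor (HIF), the hydroxylases and the ubiquitin ligase subunit that act on them, and 1 HIF target. They were chosen by symbol, by a rule that sets no threshold on a measured value, though with earlier results of these data known, and all 9 (Hif1a, Epas1, Arnt, Egln1, Egln2, Egln3, Vhl, Hif1an and Bnip3) were found among the 52550 genes of the count table and passed the filter on low counts. The study sequenced mRNA of bone marrow-derived macrophages (BMDMs) of C57BL/6 mice, cultured for 7 days with 25 ng/mL macrophage colony-stimulating factor and treated with 100 ng/mL lipopolysaccharide (LPS), a bacterial outer membrane molecule that macrophages sense through TLR4. In the GIT1 CKO group (n = 3 libraries), the floxed Git1 gene, which encodes a GTPase-activating scaffold protein, was deleted by a Cre recombinase under the Lyz2 promoter, which is active in macrophages and other myeloid cells. The control group, GIT1 fl/fl (n = 3 libraries, labelled CWT), carried the floxed gene without Cre. Every library was described as coming from LPS-treated cells, so the comparison is between genotypes and holds no untreated or hypoxic cells. The duration of the LPS treatment and the sex and age of the mice that gave these libraries were not stated, and Git1 deletion and the presence of Cre cannot be told apart.

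HIF is a pair of an alpha subunit, HIF-1α (Hif1a) or HIF-2α (Epas1), and the constitutive partner ARNT. When oxygen is plentiful, prolyl hydroxylases of the EGLN family mark the alpha subunits for the VHL ubiquitin ligase and the proteasome, and the asparaginyl hydroxylase FIH (Hif1an) keeps the remaining protein from binding its coactivators. In macrophages LPS raises Hif1a transcription through NF-κB, and HIF-1α drives glycolytic genes and Il1b. Because the switch acts mainly on protein stability, the mRNA levels given here do not measure HIF activity.

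Levels are CPM, that is a gene's counts relative to the library total, after TMM scaling, which corrects totals for differences in composition. Total counts were 81131281 to 157485640 in the GIT1 CKO libraries and 61895190 to 68083745 in the GIT1 fl/fl libraries, so GIT1 CKO was sequenced more deeply. Git1 itself, a check of the labels, was at 72.8 to 74.5 CPM in GIT1 CKO and at 71.9 to 103 CPM in GIT1 fl/fl, and the groups overlapped (log2 fold change -0.22, SE 0.14, adjusted p = 0.447 by edgeR's quasi-likelihood test). Whether the counted exons lie in the deleted part was not known, so the libraries are named by their labels. Without untreated cells, the response to LPS could not be checked either. Nos2, which LPS induces and which was picked after its values were seen, was at 0.299 CPM or less in every library. Xist and Y-linked mRNAs ran with the genotype. In CPM without TMM scaling, the sum of 4 Y-linked genes was at 0 to 0.0254 in GIT1 CKO and at 26.1 to 79.3 in GIT1 fl/fl. Genotype and the sex make-up of the samples thus cannot be told apart. The libraries differed in how log2 CPM, taken relative to the mean of the other 5 libraries, ran with transcript GC content, with a Spearman's rho across genes (which are not independent replicates) of -0.42 to -0.34 in GIT1 fl/fl replicate 1 and the 3 GIT1 CKO libraries, 0.20 in GIT1 fl/fl replicate 3 and 0.65 in GIT1 fl/fl replicate 2. Values with the GC trend removed are given beside the genes this touches, of which Hif1a and Bnip3 moved by the largest amounts and Egln1 and Egln2 changed the sign of their difference. The cells carried macrophage mRNAs, whose 8 markers summed to 29133 to 30732 CPM in GIT1 CKO and 44708 to 53693 CPM in GIT1 fl/fl. Lyz2, whose promoter drives Cre, made up most of that sum and was at 15379 to 16947 CPM against 31760 to 39522 CPM. It was the 1 marker of the 8 that was called (log2 fold change -1.14, adjusted p = 0.0153 by edgeR's quasi-likelihood test). The 8 markers had a median log2 fold change of -0.040, with 4 above 0 and 4 below.

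Of the 9 genes, Bnip3 and Egln3 are themselves classical HIF targets, and the 250 bases upstream of their transcription start sites are shown for that reason. Both come from RefSeq promoters on build GRCm38.p6, minus strand, at chr7:138909507-138909756 for Bnip3 and chr12:54203875-54204124 for Egln3. Capitals mark the HIF core motifs ACGTG and GCGTG on either strand, so that CACGT and CACGC are the same motifs read on the other strand.
Bnip3: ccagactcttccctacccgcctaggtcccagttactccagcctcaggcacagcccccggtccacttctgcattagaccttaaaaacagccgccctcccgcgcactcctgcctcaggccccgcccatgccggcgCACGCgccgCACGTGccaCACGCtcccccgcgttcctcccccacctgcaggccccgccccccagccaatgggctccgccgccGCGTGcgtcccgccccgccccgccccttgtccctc
Egln3: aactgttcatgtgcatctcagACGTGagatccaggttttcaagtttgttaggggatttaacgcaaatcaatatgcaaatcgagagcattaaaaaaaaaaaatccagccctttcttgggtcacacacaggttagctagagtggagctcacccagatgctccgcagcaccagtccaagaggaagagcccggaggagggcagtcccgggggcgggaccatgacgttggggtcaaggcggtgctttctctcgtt
In Bnip3 the ACGTG motif occurred on both strands at the same site, a CACGTG palindrome 108 bases before the start site, with GCGTG motifs 117, 99 and 35 bases before it. Egln3 had a single ACGTG motif 229 bases before the start. Promoters, from 250 bases before to 50 after the start, were found for 8 of the 9 genes, all but Epas1. Of these 8, the 5 genes Bnip3, Egln1, Egln2, Egln3 and Hif1a held ACGTG and the 4 genes Arnt, Bnip3, Egln1 and Egln2 held GCGTG. Of all 32851 promoters, 19.62% held ACGTG and 32.39% held GCGTG. The 8 genes had 9 promoters, and a gene counted if any of its promoters held the motif. These shares were not matched for GC content. Motif matches describe the sequence and do not show that HIF binds there.

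Between the genotypes, none of the 9 genes passed the test. Hif1a and Egln3 had the higher mean in GIT1 CKO and the other 7 genes the lower one. Of all genes tested, 49.1% had a log2 fold change (GIT1 CKO over GIT1 fl/fl) below 0. Among the 7 genes, Egln1 and Egln2 changed sign with the GC trend removed. The median log2 fold change of the 9 genes was -0.11 beside 0.0085 for all genes tested. At an adjusted p under 0.05 by edgeR's quasi-likelihood test, 0 of the 9 were called, beside 0.755% of all 16287 genes tested (0.485% higher and 0.27% lower in GIT1 CKO), and DESeq2 and limma-voom also called 0. At an unadjusted p under 0.05 by edgeR's test, 2 of the 9 genes, Arnt and Epas1, both lower in GIT1 CKO, stood beside 17.5% of all genes in either direction and 8.45% lower. At the study's rule of a 1.5-fold change with an unadjusted p under 0.05, applied to edgeR's test, 0 passed beside 8.62% (6.48% higher and 2.14% lower). With DESeq2, which the submitters name, 1 of the 9 genes, Egln3, met that rule, beside 1705 of all 16287 genes. In 4 genes (Epas1, Arnt, Egln1 and Hif1an) every GIT1 CKO library was below every GIT1 fl/fl library, beside 15.1% of all genes, and in 1 gene (Egln3) every GIT1 CKO library was above, beside 13.6%. Together, 5 of the 9 genes had groups that did not overlap, beside 28.7% of all genes. With 3 libraries per group and a p of 0.000373 as the largest among called genes, the interval of each gene below gives the differences that these libraries allow. In these bulk samples, fewer cells that carry an mRNA and less mRNA per cell cannot be told apart.

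**Figure D1:**
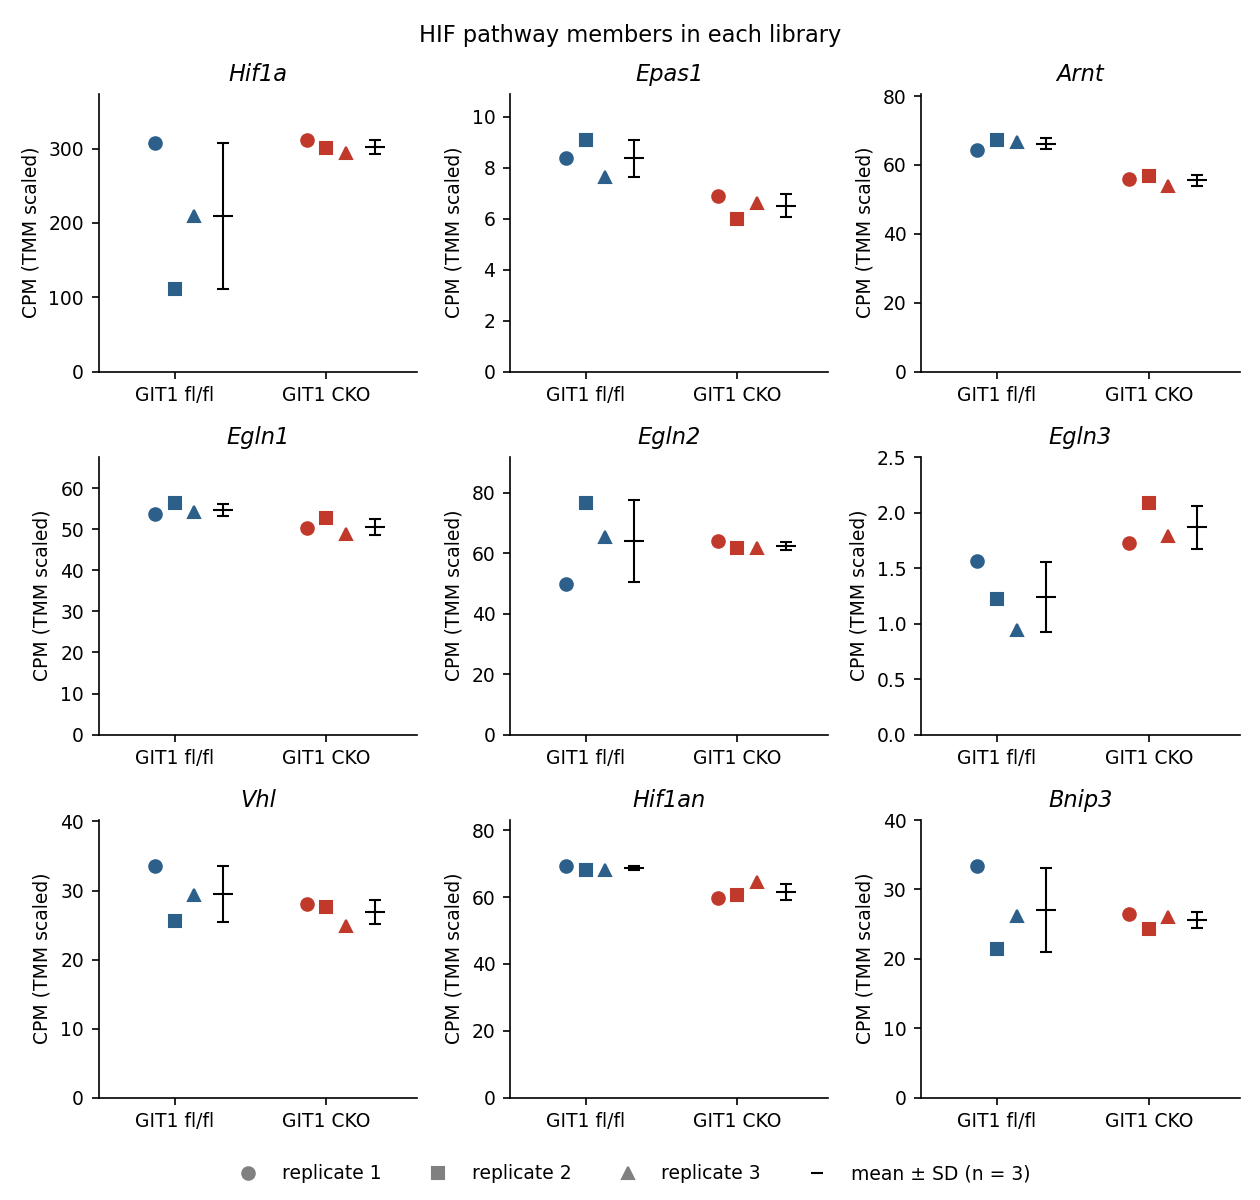
CPM after TMM scaling (y axes, each from 0) of the 9 genes in the 3 GIT1 fl/fl libraries (blue) and the 3 GIT1 CKO libraries (red), with replicates by symbol and the mean ± SD beside them. The GIT1 CKO libraries lie close together for Hif1a, Egln2 and Bnip3 while the GIT1 fl/fl libraries spread, and the groups are apart for Epas1, Arnt, Egln1, Egln3 and Hif1an.

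Hif1a (12:73901375-73947530, plus strand, on GRCm38) encodes the alpha subunit HIF-1α and was the most abundant of the 9 mRNAs. The GIT1 CKO libraries, given in the order of replicates 1 to 3 here and below, were at 312, 301 and 294 CPM, against 307, 111 and 209 CPM in the controls. Replicate 1 of GIT1 fl/fl thus lay within the GIT1 CKO range, the others lay below it, and the groups overlapped. The means were 302 ± 8.90 CPM (SD, n = 3) and 209 ± 98.3 CPM (SD, n = 3), so the highest library was 1.06 times the lowest within GIT1 CKO and 2.78 times within GIT1 fl/fl. The log2 fold change was 0.53 (SE 0.33, 95% interval -0.27 to 1.33, adjusted p = 0.432 by edgeR's quasi-likelihood test). It depended on which control library was kept, being 0.25 without GIT1 fl/fl replicate 2 and 0.92 (adjusted p = 0.0854) without GIT1 fl/fl replicate 1.

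The spread of Hif1a among the controls was set beside that of genes of like transcript GC content, and its cause was not tested. In GIT1 fl/fl replicate 2, Hif1a was lower by a log2 ratio of -1.22 than the mean of GIT1 fl/fl replicates 1 and 3. Its longest transcript is 41.3% GC, and the 2062 genes of 40 to 45% GC had a median log2 ratio of -0.60 there (25th to 75th percentile -0.97 to -0.28). Hif1a was therefore below most genes of like GC content. When a smooth trend of each library's counts with GC content was removed, Hif1a was at 270.5, 257 and 243 CPM in GIT1 CKO and 255, 183 and 230 CPM in GIT1 fl/fl, and the log2 fold change was 0.21 (adjusted p = 0.362 by edgeR's quasi-likelihood test). The highest GIT1 fl/fl library was then 1.40 times the lowest. Of the 10023 genes averaging 5 CPM or more, 6.89% varied as much as Hif1a or more among the uncorrected GIT1 fl/fl libraries.

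**Figure D2:**
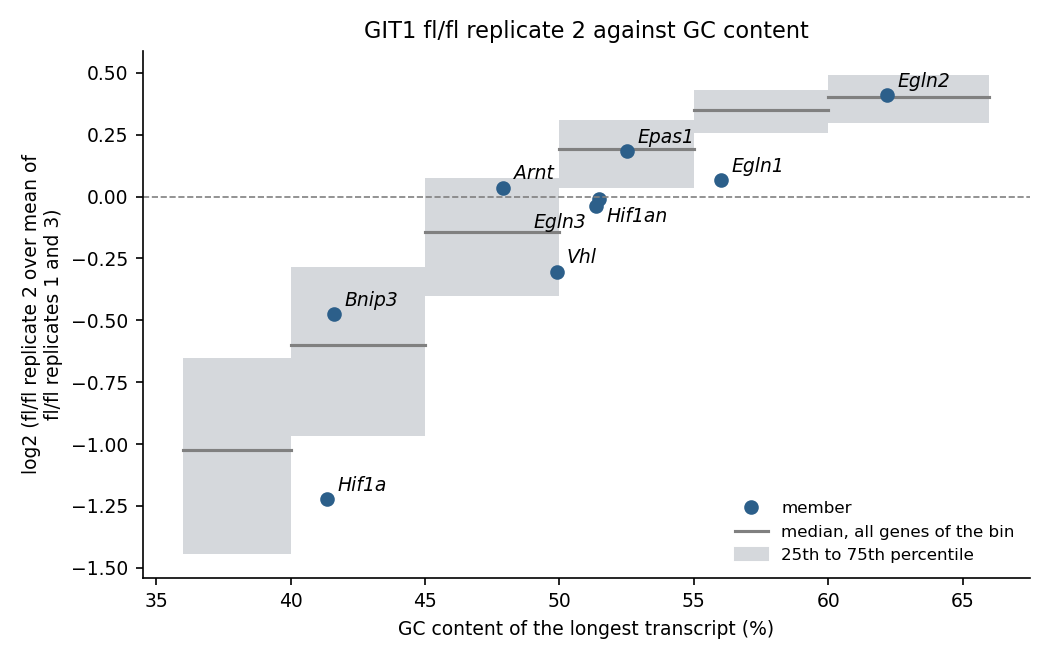
Log2 ratio of GIT1 fl/fl replicate 2 to the mean of GIT1 fl/fl replicates 1 and 3 (y axis) against the GC content of the longest transcript in percent (x axis) for the 9 genes (points), with the median (line) and the 25th to 75th percentiles (grey) of all genes of a GC bin. Hif1a (-1.22) and Bnip3 (-0.48), both under 42% GC, lie lowest, and Egln2 (0.41), at 62.2% GC, lies highest.

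The 3 genes whose pattern over the 6 libraries was most like that of Hif1a were Ercc6l2, Tgs1 and Gtpbp4, with root mean square differences of 0.039, 0.047 and 0.050 between centred log2 CPM. Their transcripts are 44.0%, 41.9% and 41.1% GC, close to that of Hif1a. An antisense model, Gm15283, shares 330 exon bases with Hif1a and had counts equal to 1.45% of those of Hif1a. Strand use in the counting was not stated.

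Epas1 (chromosome 17, plus strand) encodes the other alpha subunit, HIF-2α, which is most abundant in endothelium and is also found in macrophages. It was at 6.89, 6.01 and 6.61 CPM in GIT1 CKO and 8.37, 9.10 and 7.66 CPM in GIT1 fl/fl, so every GIT1 CKO library was below every control. The log2 fold change was -0.37 (SE 0.13, 95% interval -0.69 to -0.043), with an unadjusted p of 0.0316 and an adjusted p of 0.245 by edgeR's quasi-likelihood test, and did not pass. The groups stayed apart after the GC trend was removed, with a log2 fold change of -0.26 (adjusted p = 0.225 by edgeR's quasi-likelihood test). Endothelial markers were, in sum, higher in GIT1 CKO. Their 6 genes summed to 22.8 to 24.4 CPM in GIT1 CKO and 13.03 to 13.57 CPM in GIT1 fl/fl, and Pecam1, which macrophages also express, made up most of that and was higher in GIT1 CKO (log2 fold change 1.10, adjusted p = 0.0162 by edgeR's quasi-likelihood test). Cdh5 was at 1.56 to 2.26 CPM in GIT1 CKO and 1.07 to 1.56 CPM in the controls (log2 fold change 0.64, past the 1.5-fold rule), Kdr at 1.74 to 2.14 against 1.52 to 1.98 CPM, and Emcn at 0.797 to 0.919 against 0.0596 to 0.534 CPM. Egfl7 was at 0.812 to 0.988 against 0.894 to 2.58 CPM, its mean lying lower in GIT1 CKO as that of Epas1 did, and Tek was at 0 in 3 of the 6 libraries and at 0.0835 CPM or less in the others. The part of endothelial mRNA in the levels of Epas1 was not tested.

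Arnt (3:95434388-95497240, plus strand), the partner that both alpha subunits need to bind DNA, was at 55.8, 56.9 and 53.8 CPM in GIT1 CKO and 64.4, 67.3 and 66.8 CPM in GIT1 fl/fl. Both groups were tight and did not overlap. The difference was a log2 fold change of -0.25 (SE 0.087, 95% interval -0.46 to -0.046, unadjusted p = 0.0237, adjusted p = 0.221 by edgeR's quasi-likelihood test), which is 0.839-fold. With the GC trend removed it was -0.29 (adjusted p = 0.0854 by edgeR's quasi-likelihood test). Of the 9 genes, Arnt had the smallest unadjusted p, and it too did not pass.

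Set against each other within a library, the ratio of Hif1a to Arnt, each per kilobase, was 7.59, 7.18 and 7.42 in GIT1 CKO and 6.48, 2.23 and 4.25 in GIT1 fl/fl. The ratio of Hif1a to Epas1 was 42.9, 47.4 and 42.2 in GIT1 CKO and 34.8, 11.5 and 25.9 in GIT1 fl/fl. Both ratios were higher in every GIT1 CKO library than in any control (two-sided exact permutation test, p = 0.1, the smallest that 3 against 3 allows, adjusted p = 0.35 over the 7 ratios and sums compared). GIT1 fl/fl replicate 2, in which Hif1a was lowest, had the lowest value of both, and these ratios were not corrected for GC content.

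**Figure D3:**
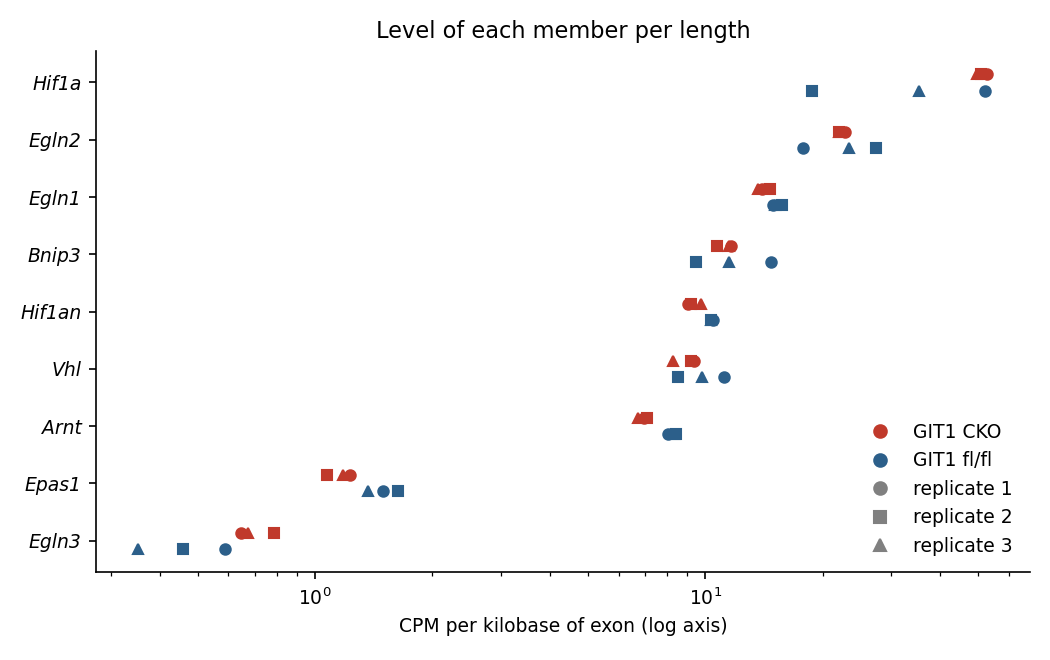
CPM per kilobase of exon (x axis, log axis) of the 9 genes in each GIT1 CKO (red) and GIT1 fl/fl (blue) library. Hif1a is at the top in 5 of the 6 libraries, and Epas1 and Egln3 lie at the bottom, at 1.63 CPM per kilobase or less in every library.

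Per kilobase of exon, which allows levels of different genes to be compared, Hif1a had means of 51.2 CPM per kilobase in GIT1 CKO libraries and 35.4 in controls. Egln2 followed at 22.3 and 22.9, then Egln1 at 14.1 and 15.2, Bnip3 at 11.3 and 11.9, Hif1an at 9.32 and 10.4, Vhl at 8.95 and 9.84, and Arnt at 6.93 and 8.26. Epas1 (1.16 and 1.498) and Egln3 (0.702 and 0.466) were the least abundant. Hif1a exceeded Egln2 in every library but GIT1 fl/fl replicate 2, where Hif1a was at 18.8 and Egln2 at 27.4 CPM per kilobase. The ranges over the 6 libraries overlapped between Egln1 (13.6 to 15.7) and Bnip3 (9.45 to 14.7), between Bnip3, Hif1an (9.04 to 10.5) and Vhl (8.29 to 11.2), and between Vhl and Arnt (6.72 to 8.404), while those of Egln2 (17.8 to 27.4), Epas1 (1.07 to 1.63) and Egln3 (0.353 to 0.784) met no neighbour below Hif1a. Within a library, Egln1 was above Bnip3 and Vhl above Arnt in 6 of 6 libraries, as were Egln2 above Egln1, Arnt above Epas1 and Epas1 above Egln3. Bnip3 was above Hif1an in 5 of 6 and Hif1an above Vhl in 3 of 6, so the order of Hif1an and Vhl did not exceed their spread.

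Among the prolyl hydroxylases, Egln1 (8:124908587-124949324, minus strand), which encodes PHD2, the main oxygen sensor of most cells, was at 50.2, 52.8 and 49.0 CPM in GIT1 CKO and 53.7, 56.4 and 54.1 CPM in GIT1 fl/fl. The GIT1 CKO libraries were all lower, though the highest of them was within 1 CPM of the lowest control. The log2 fold change was -0.11 (SE 0.090, 95% interval -0.33 to 0.10, adjusted p = 0.520 by edgeR's quasi-likelihood test), and it was 0.016 with the GC trend removed, when the groups overlapped.

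Egln2 (7:27158658-27166802, minus strand), which encodes PHD1, was at 63.9, 61.8 and 61.6 CPM in GIT1 CKO and 49.9, 76.6 and 65.5 CPM in GIT1 fl/fl. The GIT1 CKO values lay inside the control range. The log2 fold change was -0.036 (SE 0.16, 95% interval -0.42 to 0.35, adjusted p = 0.916 by edgeR's quasi-likelihood test). Egln2 has the most GC-rich transcript of the 9 genes, 62.2% GC, and was 0.41 higher on the log2 scale in GIT1 fl/fl replicate 2 than the mean of the other controls. With the GC trend removed, its log2 fold change turned to 0.16 (adjusted p = 0.272 by edgeR's quasi-likelihood test) and every GIT1 CKO library was above every control.

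Egln3 (12:54178981-54203860, minus strand), which encodes PHD3, a hydroxylase that HIF itself induces, was the only gene of the 9 that lay higher in every GIT1 CKO library. It was at 1.72, 2.09 and 1.79 CPM in GIT1 CKO and 1.57, 1.22 and 0.939 CPM in GIT1 fl/fl. The log2 fold change was 0.59 (1.504-fold, SE 0.25, 95% interval -0.011 to 1.19, adjusted p = 0.290 by edgeR's quasi-likelihood test). These levels rest on 227, 336 and 144 counts in GIT1 CKO and 98, 82 and 58 counts in GIT1 fl/fl. The 95% Wilson intervals, which cover counting error only, ran from 1.51 to 1.96 CPM for GIT1 CKO replicate 1 and from 1.28 to 1.91 CPM for GIT1 fl/fl replicate 1, so the nearest libraries of the groups overlapped within counting error. With an unadjusted p of 0.0533, Egln3 was just outside the study's 1.5-fold rule. It met that rule with total-count scaling, DESeq2, limma-voom, no filter on low counts or the GC trend removed, with log2 fold changes of 0.59 to 0.66, and without GIT1 fl/fl replicate 1 (0.79, adjusted p = 0.102 by edgeR's quasi-likelihood test). All genes that met the rule numbered 1439 to 1793 in the former settings and 2794 without GIT1 fl/fl replicate 1. No alternative took the adjusted p of Egln3 under 0.05.

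The genes most like Egln3 over the 6 libraries were Naa30, Rmdn1 and 1110059G10Rik, with root mean square differences of 0.094, 0.11 and 0.11 between centred log2 CPM. Their transcripts are 40.5%, 41.8% and 42.2% GC, below the 51.4% of Egln3. Egln3 made up 1.89% ± 0.18 (SD, n = 3) of the summed Egln mRNA per kilobase in GIT1 CKO and 1.24% ± 0.46 (SD, n = 3) in GIT1 fl/fl (two-sided exact permutation test, p = 0.2, adjusted p = 0.467 over the 7 ratios and sums). Egln2 made up 60.1% ± 1.15 and 58.9% ± 4.90 (SD, n = 3 each), and Egln1 38.0% ± 0.97 and 39.9% ± 4.49 (SD, n = 3 each). In sum, Egln mRNA came to 37.1 ± 0.70 CPM per kilobase with the deletion and 38.6 ± 5.10 in the controls (SD, n = 3 each). Egln2 and Egln1 thus made up nearly all prolyl hydroxylase mRNA in both genotypes.

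Hif1an (19:44562850-44576274, plus strand), the asparaginyl hydroxylase FIH, was at 59.7, 60.7 and 64.4 CPM in GIT1 CKO and 69.3, 68.2 and 68.2 CPM in GIT1 fl/fl. Every GIT1 CKO library was lower, with a log2 fold change of -0.16 (SE 0.087, 95% interval -0.36 to 0.053, adjusted p = 0.387 by edgeR's quasi-likelihood test). The groups overlapped once the GC trend was removed (log2 fold change -0.077).

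Vhl (6:113623959-113631633, plus strand), the substrate-recognising subunit of the ubiquitin ligase that takes hydroxylated HIF alpha subunits, was at 28.1, 27.6 and 24.8 CPM in GIT1 CKO and 33.6, 25.5 and 29.4 CPM in GIT1 fl/fl. The groups overlapped (log2 fold change -0.14, SE 0.13, 95% interval -0.45 to 0.18, adjusted p = 0.591 by edgeR's quasi-likelihood test).

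Bnip3 (7:138890836-138909519, minus strand), a HIF target that marks mitochondria for removal by autophagy, was at 26.4, 24.3 and 26.1 CPM in GIT1 CKO and 33.4, 21.4 and 26.1 CPM in GIT1 fl/fl. The controls spread to both sides of the GIT1 CKO values, and the log2 fold change was -0.075 (SE 0.17, 95% interval -0.48 to 0.33, adjusted p = 0.824 by edgeR's quasi-likelihood test). Its transcript is 41.6% GC, and like Hif1a it was low in GIT1 fl/fl replicate 2 (log2 ratio -0.48 to the other controls). With the GC trend removed Bnip3 was at 23.1, 21.01 and 21.7 CPM in GIT1 CKO and 27.9, 34.7 and 28.6 CPM in GIT1 fl/fl, so that the groups no longer overlapped. The log2 fold change was then -0.47 (adjusted p = 0.0582 by edgeR's quasi-likelihood test), and it was -0.36 (adjusted p = 0.0464) when GIT1 fl/fl replicate 2 was also left out. Without GIT1 fl/fl replicate 1 and with no GC correction it was 0.11. The antisense model Gm45507 shares 504 exon bases with Bnip3 and had counts equal to 14.7% of those of Bnip3, and reads of the pair cannot be told apart without strand.

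**Figure D4:**
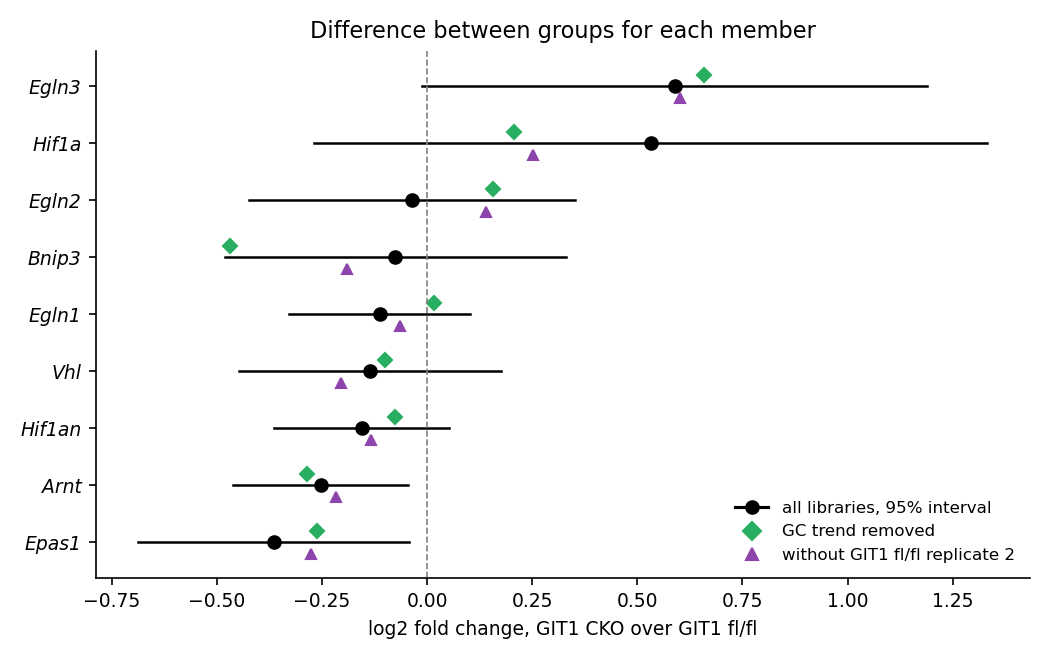
Log2 fold change of GIT1 CKO over GIT1 fl/fl (x axis) of the 9 genes with all libraries and its 95% interval (black), with the GC trend removed (green diamonds) and without GIT1 fl/fl replicate 2 (purple triangles). The intervals of Epas1 (-0.69 to -0.043) and Arnt (-0.46 to -0.046) lie below 0 and the others include it, and Hif1a, Egln2 and Bnip3 move most between the settings.

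Agreement within a genotype was uneven over the 9 genes. The median coefficient of variation was 3.98% among the GIT1 CKO libraries and 13.7% among the GIT1 fl/fl libraries, beside 5.08% and 15.4% for the 10023 genes averaging 5 CPM or more. Arnt (2.78% and 2.30%) was tight in both groups, whereas Hif1a was tight in GIT1 CKO only (2.94% and 47.1%).

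Genes that surround the switch were described by lists, by counts and medians and with no test of a list. Of 11 HIF partners and coactivators tested, 0 were called and the median log2 fold change was 0.057. Apex1, a redox factor of HIF (log2 fold change 0.61, adjusted p = 0.194), and Hsp90aa1, a chaperone that holds HIF-1α (0.88, adjusted p = 0.241), met the study's 1.5-fold rule by edgeR's quasi-likelihood test, 2 of 11 beside 6.48% of all genes higher by that rule. Hsp90aa1 was at 155 to 186 CPM in GIT1 CKO and 50.1 to 127 CPM in GIT1 fl/fl, with its lowest value, like that of Hif1a, in GIT1 fl/fl replicate 2. Hsp90ab1 and Pkm, the most abundant of this list, had log2 fold changes of 0.057 and 0.088.

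Of 22 further subunits and factors of HIF degradation, 0 were called (median 0.0016). The deubiquitinases Usp20 (-0.59, adjusted p = 0.199) and Uchl1 (0.92, adjusted p = 0.228), which are both reported to stabilise HIF-1α, met the 1.5-fold rule in opposite directions by edgeR's quasi-likelihood test, 1 of 22 each way beside 6.48% of all genes higher and 2.14% lower. The abundant Hspa8 and Rack1 had log2 fold changes of 0.21 and 0.013.

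HIF targets were split into 24 genes of sugar metabolism (median -0.093) and 45 others (median 0.018), with 0 called in either list. Of the sugar genes, 1 of 24 met the 1.5-fold rule, higher in GIT1 CKO, beside 6.48% of all genes higher by that rule. That gene was Pfkfb3, which makes the activator of phosphofructokinase (0.73, adjusted p = 0.265 by edgeR's quasi-likelihood test). It was at 40.1, 84.7 and 85.8 CPM in GIT1 CKO and 41.1 to 44.7 CPM in GIT1 fl/fl, so that 1 GIT1 CKO library was at the control level. Hk1 had the smallest p of this list, and every GIT1 CKO library was below every control. Its change was under 1.5-fold (-0.49, adjusted p = 0.0785 by edgeR's quasi-likelihood test). The abundant glycolytic genes Aldoa and Pkm had log2 fold changes of -0.22 and 0.088.

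Of the 45 other targets, 5 met the 1.5-fold rule, all higher in GIT1 CKO, beside 6.48% of all genes higher by that rule. The transcriptional repressor Bhlhe40 was at 9.20 to 12.0 CPM in GIT1 CKO and 5.46 to 6.20 CPM in GIT1 fl/fl (log2 fold change 0.85, SE 0.15, adjusted p = 0.0705 by edgeR's quasi-likelihood test). Tfrc, the transferrin receptor, was at 95.6 to 106 CPM against 22.01 to 74.9 CPM (1.11, adjusted p = 0.240 by edgeR's quasi-likelihood test). Its lowest library was again GIT1 fl/fl replicate 2. Pkp2 (1.90, adjusted p = 0.201) and Flt1 (1.54, adjusted p = 0.234) were at 1.38 CPM or less in every library, and Cp, named as the last of the 5, had 0.76 (adjusted p = 0.254), all by edgeR's quasi-likelihood test. Cp was at 371, 394 and 381 CPM in GIT1 CKO and 313, 132 and 231 CPM in GIT1 fl/fl. Like Tfrc, the genes Cp, Pkp2 and Flt1 were lowest in GIT1 fl/fl replicate 2. These values were not corrected for GC content, and the median of the list was -0.029 with the GC trend removed. The most abundant of these targets, Hmox1, which degrades haem, and Trf, transferrin, had log2 fold changes of 0.35 and -0.12.

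Around Bnip3, 23 mitophagy genes were tested, with 0 called and a median of -0.072. Pink1, the kinase that marks damaged mitochondria, was at 138 to 143 CPM in GIT1 CKO and 187 to 248 CPM in GIT1 fl/fl (-0.59, adjusted p = 0.106 by edgeR's quasi-likelihood test). The autophagy receptor Sqstm1 was at 351 to 379 CPM against 391.9 to 732 CPM (-0.68, adjusted p = 0.206 by edgeR's quasi-likelihood test), and the apoptosis inhibitor Bcl2 lay the other way (0.92, adjusted p = 0.107 by edgeR's quasi-likelihood test). These 3 met the 1.5-fold rule, 2 of 23 lower and 1 higher beside 2.14% and 6.48% of all genes, and Gabarap, which with Sqstm1 was the most abundant, had a log2 fold change of 0.026.

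**Figure D5:**
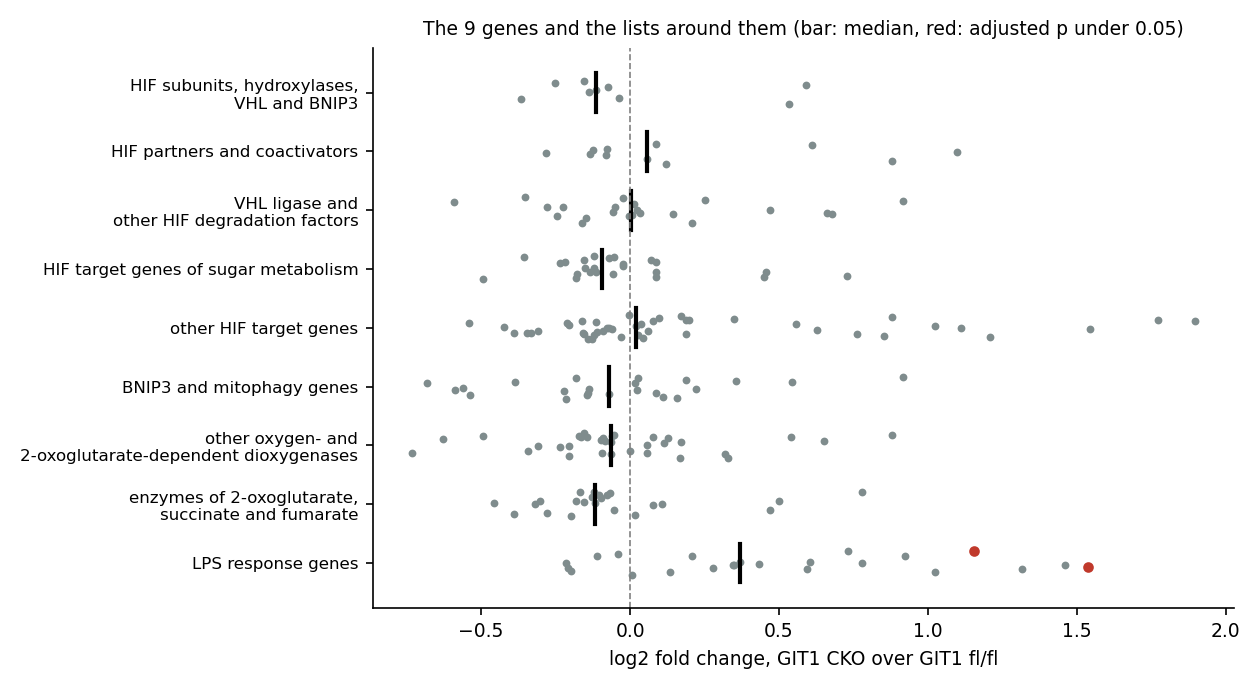
Log2 fold change of GIT1 CKO over GIT1 fl/fl (x axis) of each tested gene of the 9 genes and of the 8 lists (y axis), with the median of each list as a bar and genes with an adjusted p under 0.05 in red. The medians lie between -0.12 and 0.057 for all lists but the LPS response genes (0.37).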

How the data were processed

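The mRNA of LPS-treated BMDMs of 3 GIT1 CKO and 3 GIT1 fl/fl (labelled CWT) samples, which the paper describes as biological replicates, was measured. According to the submitters' processing notes, fastp 0.17.1, HISAT2 2.1.0, DESeq2 1.18.1 and R 3.4.3 were used. Not given in the sources used here were the tool for counting, its use of strand and the build of the genome. The deposited table gave raw counts per gene and library, which entered every test. Its signal columns hold the counts that the authors divided by 1 size factor per library, and they were checked and not used. Its fold changes, p-values and adjusted p-values of the authors' own comparison were not used.

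Of the 52550 gene IDs, 52403 matched GENCODE M21 (GRCm38), which gave coordinates, exon lengths and GC content, where 100% agreed in chromosome, 96.5% in start and 96.4% in end. The coordinates printed are those of the deposited table. Counts were fitted in R 4.3.3 with edgeR 4.0.16 (filterByExpr with a minimum count of 10, TMM scaling, robust quasi-likelihood F-test with no covariate), for 16287 of 25239 genes with any count. Benjamini-Hochberg adjustment ran over all of these, with a threshold of 0.05, and the common biological coefficient of variation was 0.277. The study's own rule, a 1.5-fold change at an unadjusted p under 0.05, was a second threshold. SE is the size of the log2 fold change over the square root of F. The GC trend was removed as a lowess curve (span 0.3) of each library's log2 CPM, centred per gene, on GC content. GC content was known for 99.8% of the genes tested. Only the main edgeR steps were run on simulated counts. These held no GC trend, so neither the GC correction nor the alternatives below were tested in this way.

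Alternatives were other scalings, DESeq2 1.42.0, limma-voom 3.58.1, other filters, thinning to the smallest library, a replicate block, GC correction and leaving out each library. The replicate numbers were not used to pair the samples, and whether same-numbered samples shared a preparation was not known. Named were the 9 genes and, in each list, up to 4 called genes and up to 4 more past the 1.5-fold rule, by smallest p, and the 2 most abundant per kilobase, together with 3 genes closest in pattern to Hif1a and Egln3, the genes with the largest spread over the libraries. The 9 genes and the lists were chosen with earlier results of these data known.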

Additional observations from a re-analysis of the deposited data

How the results depend on the processing

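The log2 fold changes of Hif1a, Epas1, Arnt, Egln3, Vhl and Hif1an kept their sign and did not pass in any alternative. Egln1 turned to 0.016 with the GC trend removed and 0.021 with a replicate block as well. Egln2 turned to 0.0040 with total counts, 0.0059 without a filter, 0.16 with the GC trend removed, with or without the block, and 0.16 without GIT1 fl/fl replicate 2 and with the GC trend removed, an alternative chosen after seeing the data. In that alternative Bnip3 was at -0.36 and passed, the 1 of the 9 genes to do so in any alternative. Leaving out each library in turn gave -0.19 to 0.14 for Egln2 (above 0 without GIT1 fl/fl replicate 2 or 3), -0.19 to 0.11 for Bnip3 and 0 called of the 9 genes throughout. All genes called numbered 123 and became 1108 with DESeq2, 1 with a replicate block, 807 with the GC trend removed, 47 with both, 953 in the added alternative and 1 to 1159 on leaving out each library (3 when GIT1 CKO replicate 1 was dropped, 4 for GIT1 CKO replicate 2, and 1159, 400 and 1 for replicates 1, 2 and 3 of the controls). At the 1.5-fold rule, 1 of the 9 genes passed with total counts, DESeq2, limma-voom, no filter or the GC trend removed. In these settings, in that order, 1477, 1705, 1719, 1793 and 1439 of all genes did, of 16287 tested or 25239 without a filter. On leaving out each library, 0 to 2 of the 9 genes passed, the 2 being Hif1a and Egln3 without GIT1 fl/fl replicate 1. All genes at that rule numbered 972 to 2794 on leaving out each library, with 2794 without GIT1 fl/fl replicate 1. The replicate numbers of the labels were not used to pair samples, since same-numbered deviations correlated by -0.048, 0.040 and 0.0075, and the replicate block changed no call among the 9 genes.

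The median log2 fold change of the 9 genes was -0.14 with upper-quartile scaling, -0.072 with total counts, -0.071 without a filter, -0.077 with the GC trend removed and -0.076 with the block too. That of the HIF partners was -0.00061 with a minimum of 1 CPM in 3 libraries, 0.12 with the GC trend removed, with or without the block, and 0.14 in the added alternative. Sugar targets were at 0.037 in the added alternative, and other targets at -0.036 with the 1 CPM minimum, -0.029 with the GC trend removed and -0.035 with the block too. Mitophagy genes were at -0.033 with total counts, -0.031 without a filter, -0.15 with the GC trend removed and -0.13 with the block too. Dioxygenases were at -0.095 with upper-quartile scaling and -0.023 with total counts or without a filter. Enzymes of 2-oxoglutarate were at -0.076 with total counts or without a filter and -0.078 in the added alternative, and LPS response genes at 0.46 in the added alternative. Leaving out each library gave -0.14 to -0.090 for the 9 genes, -0.0081 to 0.13 for partners, -0.052 to 0.068 for degradation factors, -0.13 to 0.031 for sugar targets, -0.022 to 0.036 for other targets, -0.11 to -0.029 for mitophagy genes, -0.094 to -0.034 for dioxygenases, -0.16 to -0.069 for the enzymes of 2-oxoglutarate and 0.34 to 0.47 for LPS response genes. The causes of these changes were not tested. Egln3 had the fewest counts of the 9 genes, 58 to 336 per library. With counts thinned to the smallest library, its log2 fold change was 0.60 (adjusted p = 0.294 by edgeR's quasi-likelihood test).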

Other observations

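Beyond HIF hydroxylation, the EGLN enzymes and FIH belong to a family of dioxygenases that use oxygen and 2-oxoglutarate and that succinate and fumarate inhibit. Of a list of 33 other dioxygenases, most of this family, 0 were called by edgeR's quasi-likelihood test and the median log2 fold change was -0.064. Jmjd4, a lysyl hydroxylase of a translation termination factor, was the 1 gene of this list that met the 1.5-fold rule, beside 2.14% of all genes lower by that rule. It was at 4.41 to 6.64 CPM in GIT1 CKO and 8.16 to 9.20 CPM in GIT1 fl/fl (-0.73, adjusted p = 0.162 by edgeR's quasi-likelihood test). The most abundant, the collagen hydroxylase Plod1 and the RNA demethylase Alkbh5, had log2 fold changes of -0.21 and -0.14. Of 23 enzymes that make or use 2-oxoglutarate, succinate and fumarate, 0 were called, with a median of -0.12. Acod1, which makes itaconate in activated macrophages, was at 28.5, 26.5 and 30.0 CPM in GIT1 CKO and 16.8, 18.1 and 14.7 CPM in GIT1 fl/fl (0.78, SE 0.12, adjusted p = 0.0504 by edgeR's quasi-likelihood test) and missed the threshold narrowly. Idh1 and Glud1, the most abundant, had log2 fold changes of -0.32 and -0.055.

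Of 23 LPS response genes tested, 2 rose in GIT1 CKO, beside 0.485% of all genes, and 0 fell, with a median log2 fold change of 0.37. Marco, a scavenger receptor, was at 108 to 114 CPM in GIT1 CKO and 32.8 to 43.3 CPM in GIT1 fl/fl (1.54, adjusted p = 0.0124 by edgeR's quasi-likelihood test). The chemokine Ccl2 was at 31.2 to 36.9 CPM against 15.0 to 15.5 CPM (1.15, adjusted p = 0.0153 by edgeR's quasi-likelihood test). A further 6 genes met the 1.5-fold rule without being called, for 8 of 23 higher by that rule beside 6.48% of all genes, of which Acod1 (above), Saa3 (1.32, adjusted p = 0.0547), Ccl4 (0.73, adjusted p = 0.0705) and Il1b (0.92, adjusted p = 0.0792) had the smallest p by edgeR's quasi-likelihood test. Il1b, a HIF-1α target in LPS-treated macrophages, was at 8.69 to 10.4 CPM in GIT1 CKO and 4.05 to 5.50 CPM in GIT1 fl/fl. The abundant Ccl3 and Nfkbia had log2 fold changes of 0.13 and -0.21. Levels of Nos2, which LPS and HIF-1α induce, were 0.0497 to 0.299 CPM, and Il6 was at 0 in every GIT1 fl/fl library and at 0.0808 CPM or less in GIT1 CKO. These 2 genes were chosen after their values were seen.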
